A study of Homo sapiens with 6 samples.

Results

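The Hippo pathway and TEAD genes described here are *YAP1*, *WWTR1*, *TEAD1*, *TEAD2*, *TEAD3*, *TEAD4*, *LATS1*, *LATS2*, *AMOTL2* and *ANKRD1*. They were taken by symbol, with earlier results of these data known, and are 10 of the 19225 symbols in the deposited table. All 10 passed the filter on low values, a mean of at least 0.5 FPKM over the libraries, as 10 of the 12884 genes tested. All 6 libraries came from SW480 cells, a long-established line from a human colon cancer with mutant p53, after transfection of a plasmid. In 3 libraries the cells were controls, and in the other 3 they had been transfected with an MDM4 plasmid. MDM4 is a negative regulator of p53. The sample labels name the second group "exercised", and the table's columns carry a letter and a number only. The letter G was read as control and M as MDM4, and the number as the replicate number. Transfection was transient, and the labels do not say whether replicates were separate cultures, so the p-values measure the spread between these libraries only, which may be technical. Expression is in FPKM, the reads on a gene divided by its length and by the size of the library, so levels of different genes can be compared per length.

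The Hippo pathway is a kinase cascade that limits growth. The kinases MST1 and MST2 (*STK4* and *STK3*) activate LATS1 and LATS2, which phosphorylate the coactivators YAP (*YAP1*) and TAZ (*WWTR1*) and keep them out of the nucleus. In the nucleus, YAP and TAZ bind the TEAD transcription factors and switch on genes for growth and adhesion, and in the intestine they take part in regeneration and in tumour growth. *AMOTL2* and *ANKRD1* are among their widely used target genes, and *LATS2* is a target as well, as a negative feedback. Much of this regulation acts on the proteins, which RNA levels do not measure.

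TEAD factors bind the letters GGAATG, on the other strand CATTCC. Both were searched on both strands in the 250 bases before each start site in RefSeq's promoters (GRCh38.p14), where 11.9% of all 35116 promoters hold a match. Of the 10 genes, 8 have a promoter there, and *TEAD1* and *TEAD4* do not. A match was found in 3 of the 8, *YAP1*, *AMOTL2* and *ANKRD1*. Counted by promoter, as the share over all promoters is, 3 of the 12 promoters of these 8 genes held a match. Of the 22 YAP and TAZ target genes listed further on, 16 have a promoter there, and 8 of their 18 promoters (44.4%) hold a match. The windows of these 3 genes and of *CTGF*, a classic target with 3 matches, are shown because they carry the letters, with each match in capitals and all sequences written 5′ to 3′ on the gene's strand. The *ANKRD1* window is chr10:90921088-90921337 on the minus strand, with matches that begin 220 and 128 bases before the start site. The *AMOTL2* window, at the second of its start sites, is chr3:134374448-134374697 on the minus strand, with a match 69 bases before the start. The *YAP1* window is chr11:102110197-102110446 on the plus strand, with a match 162 bases before the start. The *CTGF* window is chr6:131951373-131951622 on the minus strand, with matches 169, 104 and 95 bases before the start. All 4 windows end at the base before an annotated first exon. A match is a description of these letters, not a binding site shown by these data.
ANKRD1: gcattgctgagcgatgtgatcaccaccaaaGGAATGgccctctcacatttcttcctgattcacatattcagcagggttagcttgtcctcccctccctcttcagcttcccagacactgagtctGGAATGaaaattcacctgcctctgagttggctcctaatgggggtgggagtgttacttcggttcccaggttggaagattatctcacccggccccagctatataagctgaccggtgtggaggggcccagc
AMOTL2: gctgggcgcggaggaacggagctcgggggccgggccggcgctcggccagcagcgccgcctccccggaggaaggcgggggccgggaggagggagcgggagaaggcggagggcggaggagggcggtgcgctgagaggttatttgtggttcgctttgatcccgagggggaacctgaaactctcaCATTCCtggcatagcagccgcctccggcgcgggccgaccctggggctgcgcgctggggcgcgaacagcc
YAP1: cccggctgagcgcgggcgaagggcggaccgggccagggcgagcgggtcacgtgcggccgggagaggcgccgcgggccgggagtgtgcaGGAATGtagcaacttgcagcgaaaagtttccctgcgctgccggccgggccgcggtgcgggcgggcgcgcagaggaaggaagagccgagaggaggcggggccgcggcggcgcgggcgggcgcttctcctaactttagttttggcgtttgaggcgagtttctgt
CTGF: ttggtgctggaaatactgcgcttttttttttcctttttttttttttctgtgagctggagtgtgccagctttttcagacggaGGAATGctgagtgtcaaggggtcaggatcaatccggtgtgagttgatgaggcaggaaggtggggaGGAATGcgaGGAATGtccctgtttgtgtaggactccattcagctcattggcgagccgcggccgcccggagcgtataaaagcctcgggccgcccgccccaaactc

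The libraries held between 32377846 and 43830549 reads on genes, recovered from the steps of the FPKM values and known up to a common factor, and the 10 genes had between 683 (*TEAD2*) and 13901 (*YAP1*) of them per library. *MDM4* was at 5.13 to 7.09 FPKM in the control libraries and at 188, 185 and 56.3 FPKM in MDM4 replicates 1 to 3. All 7 epithelial markers were above 1 FPKM in every library, with summed levels of 4220 to 4900 FPKM. Replicate 3 differed from the other replicates in control and MDM4 cells alike. Deviations from the group mean correlated across genes at 0.78 between the replicate 3 libraries and at -0.56 to -0.62 between a replicate 3 library and the replicate 1 and 2 libraries of the other group. A gene's deviations cancel out within a group, so the negative values follow from the positive one and are not separate evidence. The labels do not say how replicate 3 differed. In bulk RNA, fewer cells of a kind and less RNA per cell cannot be told apart.

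By mean level over the 6 libraries the order was *YAP1* (61.5 FPKM), *ANKRD1* (38.8), *TEAD1* (30.5), *AMOTL2* (30.0), *WWTR1* (22.9), *TEAD4* (21.1), *TEAD2* (11.6), *LATS1* (8.50), *TEAD3* (8.23) and *LATS2* (6.99). *YAP1* was above *ANKRD1* in every library and its range did not touch that of *ANKRD1*. The same held for *AMOTL2* over *WWTR1* and for *TEAD4* over *TEAD2*. The ranges of all other neighbours in this order overlapped, so their order is not set by these libraries. Among all tested genes, the mean level of *YAP1* lay at percentile 91.0 and that of *LATS2* at percentile 36.9.

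The first comparison asked whether transfection with MDM4 changed these transcripts. In the model of group alone, limma called none of the 10 genes, each with an adjusted p of 1, and none had an unadjusted p under 0.05. The background was the same, with 0 (0.0%) of 12884 genes called and 222 at an unadjusted p under 0.05. This model did not call the transfected gene either, since *MDM4* had a log2 fold change of 4.33 at an adjusted p of 0.161 from limma (4.77e-05 in the model with a block), so the absence of calls does not show that the 10 genes were unchanged. The MDM4 and control values overlapped for each of the 10 genes, where the groups were fully apart for 6.85% of tested genes. In a model with a term for the replicate number (a block), 2 genes were called, *MDM4* and a gene outside the 10, and the smallest adjusted p among the 10 was 0.387, for *TEAD1*. The log2 fold changes of the 10 genes, MDM4 over control, were at most 0.15 in size, with a median size of 0.04 against 0.08 over all tested genes.

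The coactivators are the proteins that the cascade holds back. *YAP1* measured 58.9, 71.2 and 50.8 FPKM across control replicates 1 to 3, a mean of 60.3 ± 10.3 (SD, n = 3). In MDM4 replicates 1 to 3 it was at 66.1, 67.6 and 54.6 FPKM, a mean of 62.8 ± 7.08 (SD, n = 3). In each group replicate 3 was the lowest library, and the control values spanned those of MDM4. The log2 fold change was 0.07 (95% interval -0.25 to 0.38). *WWTR1* was at 21.2, 25.2 and 21.7 FPKM in the control and 22.9, 22.7 and 23.4 FPKM in the MDM4 libraries, with MDM4 inside the control range. Its log2 fold change was 0.02 (95% interval -0.19 to 0.23). *YAP1* was 2.33 to 2.98 times the level of *WWTR1* in every library.

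The 4 TEAD genes encode the DNA-binding partners. *TEAD1* measured 24.5, 29.3 and 32.9 FPKM across control replicates 1 to 3, and 29.4, 29.5 and 37.4 FPKM across those of MDM4. MDM4 was above the control of the same number in each replicate, while the 2 groups overlapped. The labels do not say that libraries of the same number were paired. The log2 fold change of 0.15 was the largest of the 10, with a 95% interval that held 0 (standard error 0.14, -0.17 to 0.47). In the model with the block its standard error was 0.07, and it was the only member with an unadjusted p under 0.05 there, at the adjusted p of 0.387 given above. *TEAD2* was at 10.9, 9.53 and 14.8 FPKM in the control and 9.07, 9.15 and 16.2 FPKM in the MDM4 libraries, with replicate 3 the highest in each. *TEAD3* was at 7.50, 6.84 and 10.1 FPKM in the control and 8.38, 6.6 and 9.94 FPKM in the MDM4 libraries, again with replicate 3 the highest. *TEAD4* was at 25.0, 21.9 and 16.4 FPKM in the control and 22.7, 23.4 and 17.3 FPKM in the MDM4 libraries, with replicate 3 the lowest. The log2 fold changes were -0.06 for *TEAD2* (95% interval -0.66 to 0.54), 0.03 for *TEAD3* (-0.44 to 0.49) and 0.01 for *TEAD4* (-0.41 to 0.43). In each of these 3 genes replicate 3 lay outside replicates 1 and 2 of its own group.

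The LATS kinases restrain YAP and TAZ. *LATS1* measured 7.50, 10.4 and 6.68 FPKM across control replicates 1 to 3, and 10.3, 8.65 and 7.48 FPKM across those of MDM4. The groups overlapped, and control replicate 1 lay next to MDM4 replicate 3. *LATS2* varied less, at 7.02, 7.05 and 6.46 FPKM in the control and 6.91, 7.40 and 7.11 FPKM in the MDM4 libraries. The log2 fold changes were 0.11 (95% interval -0.33 to 0.56) for *LATS1* and 0.06 (-0.19 to 0.31) for *LATS2*.

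The 2 target genes give a readout of YAP and TAZ activity in many cells. *AMOTL2*, an angiomotin family gene, measured 32.3, 30.4 and 27.5 FPKM across control replicates 1 to 3, and 32.0, 30.1 and 27.8 FPKM across those of MDM4. Same-numbered libraries, which the labels do not call pairs, lay within 0.02 of each other on the log2 scale. *ANKRD1*, a nuclear ankyrin repeat protein, was at 44.6, 44.4 and 28.3 FPKM in the control and 42.9, 43.5 and 29 FPKM in the MDM4 libraries. The same-numbered libraries again differed little, and replicate 3 was far below the others in each group. The log2 fold changes were -0.00 for *AMOTL2* (95% interval -0.22 to 0.21) and -0.02 for *ANKRD1* (-0.53 to 0.49), and both turned above 0 when the libraries were scaled to the same total or quantile normalised.

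**Figure D1:**
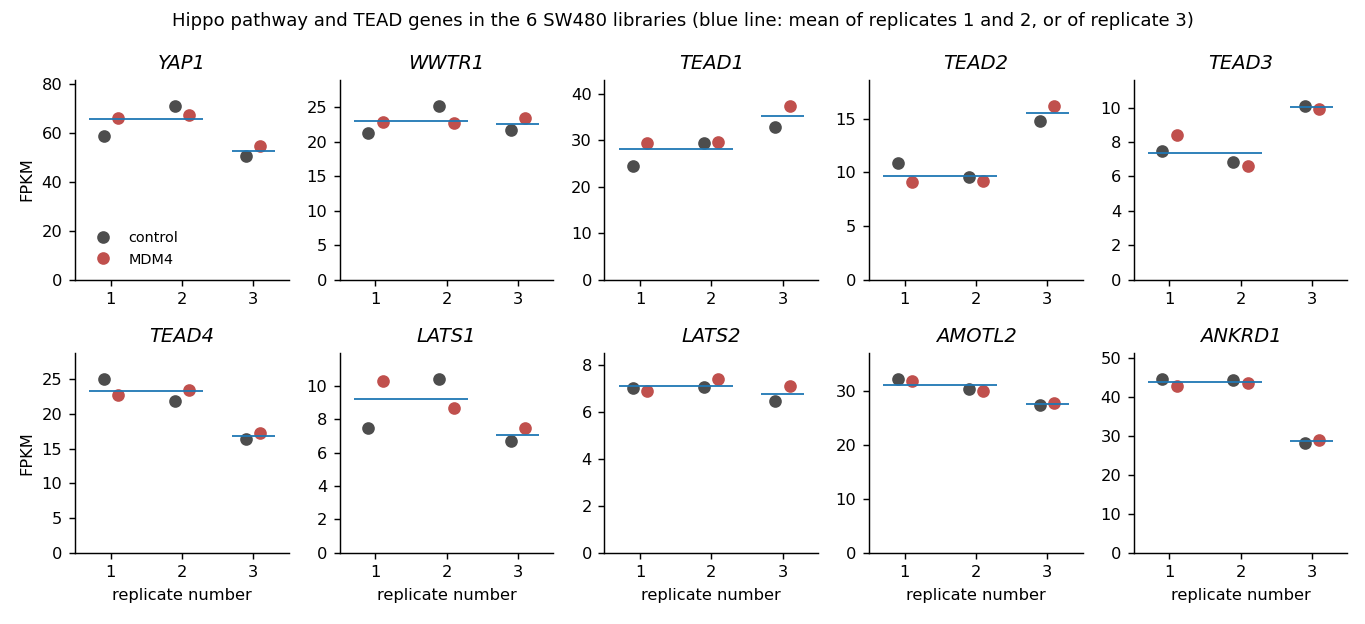
FPKM of each of the 10 genes (y axis, from 0) against replicate number (x axis) in control (grey) and MDM4 (red) libraries, 1 point per library, with blue lines at the mean of the 4 replicate 1 and 2 libraries and of the 2 replicate 3 libraries. Control and MDM4 points of a number lie close together for *AMOTL2* and *ANKRD1*, but not for *LATS1* in replicate 1 (7.5 and 10.3 FPKM). *ANKRD1* is at 28.3 and 29 FPKM in replicate 3 and at 42.9 to 44.6 in the other libraries.

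Over replicates 1 and 2 alone, 69 genes (0.536%) were called between MDM4 and control and none was among the 10 (smallest adjusted p 0.729 from limma). In that smaller comparison the signs of *LATS1* and *YAP1* depended on which control library was kept. Without control replicate 2, *LATS1* (log2 0.32), *YAP1* (0.18) and *TEAD1* (0.26) were higher with MDM4, against the single control library left. Without control replicate 1, the values were -0.146 for *LATS1*, -0.090 for *YAP1* and 0.007 for *TEAD1*, again against a single control library. The difference of the MDM4 effect between replicate 3 and replicates 1 and 2 was called for 25 genes (0.194%) and for none of the 10. Among the 10 that difference ran from -0.08 for *TEAD3* to 0.29 for *TEAD2* on the log2 scale, and limma gave an adjusted p of 1 for each.

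Other genes of the pathway were compared between MDM4 and control in 4 lists. None of the 24 tested kinases and adaptors, 16 junction and polarity genes, 10 TEAD cofactors and phosphatase genes or 21 target genes was called. The medians of the lists were 0.07, 0.07, 0.03 and 0.01 on the log2 scale, against -0.01 over all tested genes. The largest values, none past the test, were 0.32 for *MOB1B* and 0.29 for *TAOK1* among kinases and adaptors, and 0.28 for *FAT1* and 0.17 for *PATJ* among junction and polarity genes. Among cofactors and phosphatase genes they were 0.20 for *SIKE1* and 0.17 for *STRN*, and among targets 0.33 for *CTGF* and 0.29 for *DOCK5*. These values are from all 6 libraries. Over replicates 1 and 2 alone no list gene was called either (smallest adjusted p among targets 0.108 from limma). There 7 of the 21 targets had an unadjusted p under 0.05, against 1063 of 12884 genes. Of the 21 targets, 11 were higher and 10 lower with MDM4.

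The second comparison set replicate 3 of both groups against the 4 libraries of replicates 1 and 2, with the group as a term of the model. The split and the gene lists were chosen with earlier results of these data known. The p-values for replicate 3 therefore describe these libraries and are not an independent test of the split. Here 8 of the 10 genes were called. *TEAD1*, *TEAD2* and *TEAD3* were higher in replicate 3, and *YAP1*, *TEAD4*, *LATS1*, *AMOTL2* and *ANKRD1* were lower, while *WWTR1* and *LATS2* were not called. Across the transcriptome 44.1% of genes were called, 29.6% higher and 14.6% lower, a background against which the count of 8 is to be read. The values of the 2 sets did not overlap for 8 of the 10 genes, against 55.7% of all tested genes. The median size of the difference was 0.34 on the log2 scale for the 10 genes and 0.21 over all tested genes. An exact permutation test of 2 against 4 libraries cannot go below a two-sided p of 0.0667.

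The TEAD genes moved in opposite directions. *TEAD2* was at 14.8 and 16.2 FPKM in replicate 3 and at 9.07 to 10.9 in the other 4 libraries, a log2 difference of 0.68 (standard error 0.09, adjusted p = 0.000229 from limma). *TEAD3* was at 10.1 and 9.94 FPKM against 6.6 to 8.38 (log2 difference 0.45, standard error 0.10, adjusted p = 0.00529 from limma). *TEAD1* was at 32.9 and 37.4 FPKM against 24.5 to 29.5 (0.32, standard error 0.07, adjusted p = 0.00595 from limma). In all 3 genes both replicate 3 libraries lay above the other 4. *TEAD4* went the other way, at 16.4 and 17.3 FPKM against 21.9 to 25.0 (-0.46, standard error 0.07, adjusted p = 0.000634 from limma), with both replicate 3 libraries below the other 4. Without control replicate 3 the adjusted p was 0.0563 for *TEAD1* and 0.0842 for *TEAD3*, and without MDM4 replicate 3 it was 0.1 and 0.0507. *TEAD2* and *TEAD4* were called whichever library was left out.

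The make-up of TEAD transcripts differed accordingly. *TEAD4* made up 36.9%, 32.4%, 32.6% and 34.1% of the summed TEAD FPKM in control replicates 1 and 2 and MDM4 replicates 1 and 2, and 22.1% and 21.4% in the replicate 3 libraries of control and MDM4. *TEAD2* made up 13.0% to 16.0% in the first 4 and 20% and 20.1% in replicate 3. The ratio of *TEAD4* to *TEAD2* was 2.3 to 2.56 in the first 4 libraries and 1.11 and 1.06 in replicate 3 (exact permutation test, two-sided p = 0.0667, the smallest these 2 against 4 libraries allow). *TEAD1*, at 36.1% to 46.2%, was the most abundant in every library except control replicate 1, where *TEAD4* was. The summed TEAD level was 74.3 and 80.8 FPKM in replicate 3 and 67.6 to 69.6 in the other libraries (exact permutation p = 0.0667). Between MDM4 and control, no share or ratio separated the groups (exact permutation p from 0.5 to 0.9).

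**Figure D2:**
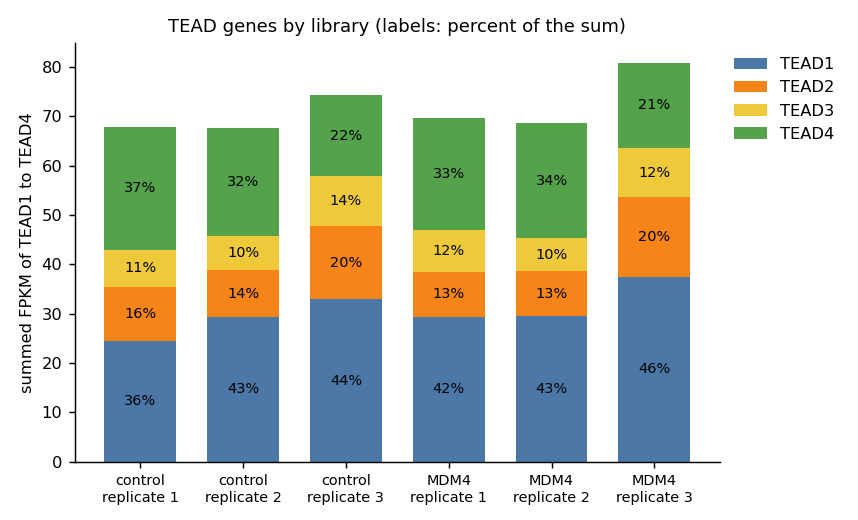
Stacked FPKM of *TEAD1* to *TEAD4* (y axis, from 0) in each of the 6 libraries (x axis), with each gene's percent of the sum written in its segment. The *TEAD4* segment is smallest in the 2 replicate 3 libraries, at 22.1% and 21.4% of the sum.

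Of the coactivators, *YAP1* was lower in replicate 3, at 50.8 and 54.6 FPKM against 58.9 to 71.2 (log2 difference -0.32, standard error 0.07, adjusted p = 0.00496 from limma). *WWTR1*, at 21.7 and 23.4 FPKM against 21.2 to 25.2, was not called, with a difference of -0.03 (95% interval -0.20 to 0.15). The *YAP1* to *WWTR1* ratio was thus 2.33 and 2.34 in replicate 3 and 2.77 to 2.98 in the other 4 libraries (exact permutation two-sided p = 0.0667). Without control replicate 3 the *YAP1* difference no longer passed (adjusted p = 0.0792 from limma).

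Of the kinases, *LATS1* was at 6.68 and 7.48 FPKM in replicate 3 against 7.50 to 10.4 (log2 difference -0.36, standard error 0.13, adjusted p = 0.0363 from limma), and the highest replicate 3 value was next to the lowest of the others. *LATS2* was at 6.46 and 7.11 FPKM against 6.91 to 7.40 and was not called (-0.07, 95% interval -0.25 to 0.12). The *LATS1* call depended on libraries and settings. Its adjusted p was 0.221 without control replicate 3, 0.152 without MDM4 replicate 3, 0.0891 without MDM4 replicate 1, 0.0977 by eBayes without trend and 0.0799 with no filter on low values.

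Of the targets, *ANKRD1* was the clearest difference of the 10. It was at 28.3 and 29 FPKM in replicate 3 and at 42.9 to 44.6 in the other libraries (log2 difference -0.61, standard error 0.06, adjusted p = 3.33e-05 from limma), and was called in every alternative run. *AMOTL2* was at 27.5 and 27.8 FPKM against 30.1 to 32.3, which is a smaller difference of -0.17 (standard error 0.06, adjusted p = 0.0406 from limma). Its adjusted p was 0.137 without MDM4 replicate 1, 0.0632 without MDM4 replicate 2, 0.212 without MDM4 replicate 3, 0.279 without control replicate 3 and 0.0858 by eBayes without trend.

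**Figure D3:**
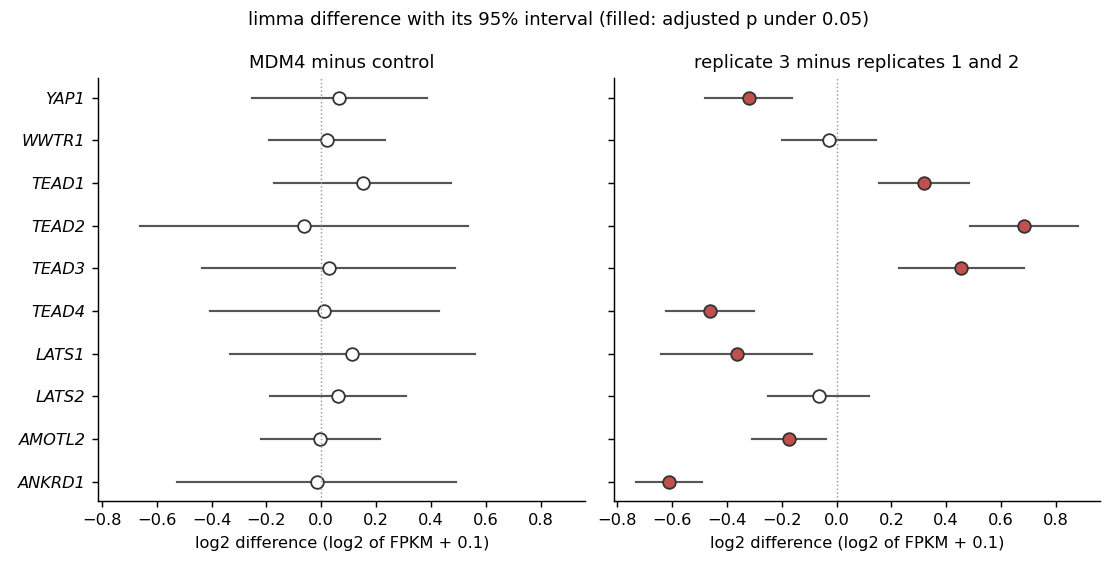
log2 difference from limma (x axis, log2 of FPKM + 0.1) with its 95% interval for each of the 10 genes (y axis), for MDM4 minus control and for replicate 3 minus replicates 1 and 2, filled where the adjusted p was under 0.05. None of the 10 is filled between MDM4 and control, and 8 are for replicate 3, from -0.61 for *ANKRD1* to 0.68 for *TEAD2*.

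The replicate 3 differences were also taken within each group. For *ANKRD1*, replicate 3 was lower by 0.65 in the control and by 0.57 in the MDM4 libraries on the log2 scale, and for *TEAD4* by 0.51 and 0.41. For *TEAD2* it was higher by 0.54 in the control and by 0.83 in the MDM4 libraries, and for *YAP1* it was lower by 0.35 and 0.29. The sign was the same in both groups for 9 of the 10 genes, where 83.9% of all tested genes kept their sign. The exception was *WWTR1*, at -0.09 and 0.04. Replicate 3 has a single library per group, so the spread in the test of the difference between groups given above came from replicates 1 and 2 alone.

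The other target genes of YAP and TAZ were mostly lower in replicate 3 too. Of 21 tested genes in the list, 15 fell and 2 rose (71.4% lower, against 14.6% of all genes), with a median of -0.41 on the log2 scale against 0.09 over all genes. *ANKRD1* and *AMOTL2* are among the 15. Without these and *LATS2*, 13 of 18 fell and 2 rose. *F3*, which encodes tissue factor, was at 10.8 and 11.6 FPKM in replicate 3 and at 32.4 to 42.5 in the other libraries (log2 difference -1.74, adjusted p = 6.58e-07 from limma). *CYR61*, a secreted matrix protein, was at 8.23 and 9.07 FPKM against 14.5 to 17.4 (-0.91, adjusted p = 4.65e-05 from limma), and *CTGF*, its relative, at 1.80 and 1.98 against 2.17 to 3.37 (-0.51, adjusted p = 0.0119 from limma). For these 3 genes both replicate 3 libraries lay below the other 4. The other 10 that fell were *FJX1* (-0.79), *NT5E* (-0.78), *TGFB2* (-0.64), *IGFBP3* (-0.63), *DOCK5* (-0.58), *AXL* (-0.54), *ASAP1* (-0.41), *MYOF* (-0.40), *FOXF2* (-0.27) and *CRIM1* (-0.20). *NUAK2* (0.53) and *GADD45A* (0.26) rose, and *LATS2*, *PTPN14*, *ARHGEF17* and *CCDC80* were not called. The call was lost for *NUAK2* with quantile normalisation (0.28, adjusted p = 0.0869 from limma), for *GADD45A* with median ratio scaling (0.16, adjusted p = 0.139) and for *CRIM1* with TPM scaling (-0.20, adjusted p = 0.054). Both replicate 3 libraries were below the mean of their group's other libraries for 18 of the 21 genes (85.7%), against 29.3% of all tested genes. Under the alternatives, 11 to 17 of the targets were lower and 0 to 2 higher, and 11 were lower without control replicate 3, without MDM4 replicate 3 or without MDM4 replicate 1.

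**Figure D4:**
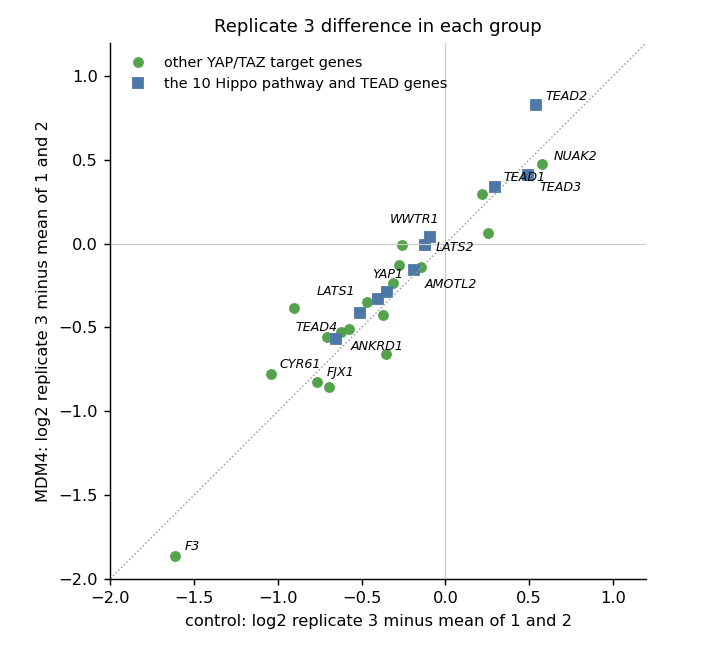
For each gene, replicate 3 minus the mean of replicates 1 and 2 on the log2 scale in the control (x axis) and in the MDM4 libraries (y axis), for the 10 genes (blue squares) and the other 18 tested YAP and TAZ target genes (green circles), with the dotted line at equal values. *F3* lies lowest in both groups and *TEAD2* highest in the MDM4 libraries, at 0.83.

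Of 24 tested kinases and adaptors, 9 (37.5%) were higher and 4 (16.7%) lower in replicate 3, shares near the 29.6% and 14.6% of all genes, and the median was 0.03. With median ratio scaling 6 were higher and 5 lower, and with quantile normalisation 6 and 6. *AMOT*, an angiomotin that binds YAP, was at 8.11 and 9.41 FPKM in replicate 3 and at 2.85 to 3.75 in the other libraries (log2 difference 1.40, adjusted p = 2.63e-05 from limma). Its relative among the 10 genes, *AMOTL2*, was lower, as given above. The other 8 that rose were *TAOK3* (0.72), *FRMD6* (0.53), *STK4* (0.47), *STK38* (0.41), *STK38L* (0.40), *WWC3* (0.37), *STK3* (0.30) and *MOB1B* (0.30). *NF2*, which encodes merlin, an activator of LATS, was at 15.2 and 14.5 FPKM in replicate 3 and at 22.2 to 24.7 in the other libraries (-0.66, adjusted p = 6.43e-05 from limma). *RASSF1* (-0.45), *WWC1* (-0.28) and *TAOK2* (-0.27) fell as well. The calls of *STK3*, *MOB1B* and *WWC3* were lost with median ratio scaling (adjusted p 0.102, 0.179 and 0.0712 from limma). They were also lost with quantile normalisation (adjusted p 0.142, 0.144 and 0.186 from limma), and that of *MOB1B* with TPM scaling (0.0511).

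Among 16 tested junction and polarity genes, 4 (25.0%) were higher and 4 (25.0%) lower in replicate 3, beside 29.6% and 14.6% of all genes, with a median of 0.04. With median ratio scaling 3 were higher and 6 lower. *WTIP* (-1.08), *AJUBA* (-0.66) and *LIMD1* (-0.27), LIM domain proteins that bind LATS kinases, fell together, and so did *TJP1* (-0.31), a tight junction gene. *CRB3* (0.48), *LLGL1* (0.32) and *CTNNA1* (0.15) were among those that rose, and the call of *CTNNA1* was lost with median ratio scaling (0.05, adjusted p = 0.424 from limma). *AJUBA* was at 16.0 and 17.4 FPKM in replicate 3 and at 25.8 to 26.7 in the other libraries. Among 10 tested TEAD cofactors and phosphatase genes, *STRN* (0.42) was the only one called, and it was lost with quantile normalisation (0.26, adjusted p = 0.0542 from limma). *VGLL4*, a TEAD corepressor, was not called, at 11 and 10.9 FPKM in replicate 3 and 9.56 to 10.3 in the other libraries, and *VGLL1*, *VGLL2* and *VGLL3* did not pass the filter on low values.

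**Figure D5:**
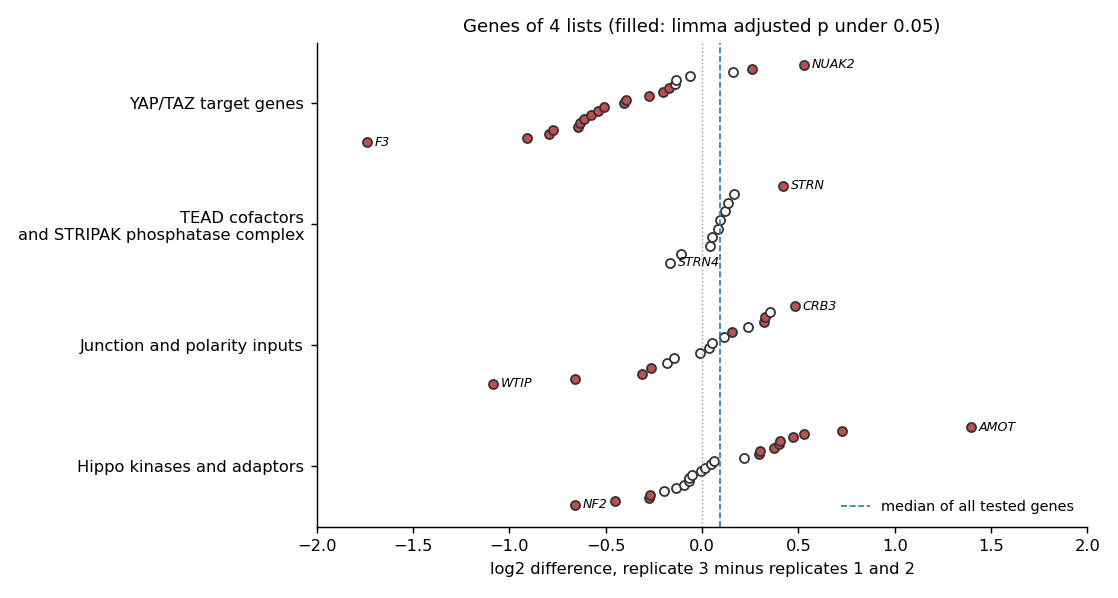
log2 difference of replicate 3 from replicates 1 and 2 (x axis) for each tested gene of the 4 lists (y axis), filled where the limma adjusted p was under 0.05, with the genes at the ends named and the median of all tested genes as a dashed line. Of the 21 targets, 15 filled points lie left of 0, while filled points lie on both sides of 0 among kinases and adaptors.

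Over all genes, 67.0% of the replicate 3 calls were higher, against 45.4% with median ratio scaling and 51.2% with quantile normalisation. The median over all genes was 0.09 as deposited and -0.01 with median ratio scaling, so each difference given above is to be read against that median. The directions of the 8 called genes among the 10 held under all of these scalings. Of markers of other cell types, the fibroblast list summed to 3.93 and 3.94 FPKM in replicate 3 and 1.75 to 2.43 in the other libraries, nearly all of it *COL1A1*, with *COL1A2*, *COL3A1* and *DCN* at or near 0. The endothelial list summed to 0.616 and 0.648 FPKM against 0.316 to 0.458, mostly *VWF*. The macrophage list summed to 5.24 to 6.20 FPKM with no separation of replicate 3, most of it *CD68*, and *PTPRC* was at most 0.0142. The part of these genes in the differences was not tested.

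The genes whose log2 levels were most like that of *ANKRD1* over the 6 libraries included *HNRNPF* (Pearson r = 0.9984) and *CTPS1* (0.9982), and 649 of the 12884 tested genes had an r over 0.95. For *YAP1* they were *FASTKD2* (0.9987), *UTP20* (0.9964) and *ESF1* (0.9963), with 243 genes over 0.95. The 6 points share the step between replicate 3 and the other libraries, so these are descriptions. In GENCODE release 29, exons of *YAP1*, *WWTR1*, *TEAD2* and *LATS1* overlap genes on the opposite strand and those of *AMOTL2* overlap the pseudogene *RPL39P5* on the same strand. Whether reads were counted by strand is not given in the sources used here, so reads in the shared bases cannot be told apart.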

How the data were processed

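Poly(A) RNA of 6 SW480 libraries, 3 control and 3 MDM4, was sequenced by the authors, who deposited FPKM values per gene symbol (19225 symbols, column totals of 389030.7 to 404970.0). The aligner, annotation and genome build are not given in the sources used here. Within a library a gene's FPKM values are whole multiples of a step, and reads were recovered for 17188 of 17189 genes above 0 (99.99%, tolerance 0.02), giving 32377846 to 43830549 reads per library. Depth so recovered covers counting error only and is known up to a common factor. Genes with a mean of 0.5 FPKM or more (12884) entered limma (version 3.58.1, R 4.3.3, lmFit and eBayes with trend) as log2(FPKM + 0.1), p-values were adjusted over all 12884 by Benjamini-Hochberg, and a gene was called at an adjusted p under 0.05. The difference is on this scale and understates changes of low genes. Models held the group alone, the group with replicate 3, and their interaction, and the group over replicates 1 and 2. Limma was run on simulated data with the spread of replicates 1 and 2. The simulation for MDM4 held no replicate 3 difference, so it does not show how that model performs on these libraries. Exact permutation tests used scipy 1.17.1. The other tools were Python 3.11.15, pandas 2.3.3, numpy 2.4.6 and matplotlib 3.10.9. The smallest two-sided p is 0.1 for 3 against 3 libraries and 0.0667 for 2 against 4.

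The 10 genes and the 4 lists (kinases and adaptors, junction and polarity genes, TEAD cofactors and the STRIPAK phosphatase complex, and YAP and TAZ target genes), as well as the marker lists, were chosen with earlier results of these data known, and so was the split by replicate 3. Named genes are the 10, *MDM4*, list genes called in the comparison described or, if fewer than 2 were, those of the 2 largest differences, markers, and the 3 genes most like *ANKRD1* and *YAP1*. Some genes that this rule names are not reported here. Genes of the lists named for not being called, *AMOTL2*'s overlapping pseudogene and *VGLL4* fall outside that rule and were chosen after their values were seen.

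The replicate numbers were checked for pairing. Deviations from the group mean correlated between same-numbered libraries at 0.46, 0.45 and 0.78 in replicates 1 to 3, and the correlation between replicate 1 of a group and replicate 2 of the other was as high (0.46 and 0.44). A gene's deviations cancel out within a group, so the values of replicates 1 and 2 depend on that of replicate 3. This check, which rests on the data, sets replicate 3 apart. It cannot tell whether replicates 1 and 2 are paired by number, since the crossed correlations were as high. A block for the replicate number was therefore an alternative fit only. Other alternatives were pseudocounts of 0.5 and 1, no filter or a filter of 1 FPKM, scaling to TPM, median ratio scaling, quantile normalisation, eBayes without trend, voom on the recovered reads and each library left out in turn. Promoters are from RefSeq (GRCh38.p14).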

Additional observations from a re-analysis of the deposited data

Results flagged for a closer look

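Of the values reported, that of *MDM4* itself met the test of a difference between sets of libraries. The log2 rise of *MDM4* over control was smaller in replicate 3 than in replicates 1 and 2, by -1.35 (standard error 0.15, adjusted p = 0.00166 from limma, interaction of group and replicate 3), with a single library per group in replicate 3. The call was lost with no filter on low values (adjusted p = 0.466 from limma) and by eBayes without trend (adjusted p = 0.198 from limma), both at the same log2 value. None of the 10 Hippo pathway and TEAD genes showed such a difference.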

How the results depend on the processing

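Between MDM4 and control, none of the 10 genes was called under any alternative of the 6-library comparison, the replicate block included. The count over all genes was 0, rising to 2 with the replicate block, 27 when the block was used in voom on recovered reads, and 0 to 21 when a library was left out (21 without control replicate 3, 1 without MDM4 replicate 3). Over replicates 1 and 2 the count of 69 was 4 with no filter, 27 by eBayes without trend, 172 with the replicate block and 89 to 2026 when a library was left out. The interaction's count of 25 was 0 with no filter and 5 by eBayes without trend. The replicate 3 count of 5685 ran from 2424 to 6424 when a library was left out, with 2848 without control replicate 3 and 2424 without MDM4 replicate 3.

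Signs of the small MDM4 differences turned. Over replicates 1 and 2 alone, log2 values were -0.023 for *WWTR1* and -0.021 for *TEAD4*. Scaling to TPM gave 0.026 for *AMOTL2* and 0.012 for *ANKRD1*, quantile normalisation gave 0.013 and 0.017, and median ratio scaling gave 0.005 for *AMOTL2*. With a library left out the values ran from -0.051 to 0.19 for *YAP1*, -0.025 to 0.10 for *WWTR1*, -0.34 to 0.12 for *TEAD2*, -0.11 to 0.19 for *TEAD3*, -0.16 to 0.15 for *TEAD4*, -0.02 to 0.30 for *LATS1*, -0.066 to 0.05 for *AMOTL2* and -0.23 to 0.17 for *ANKRD1*, and for replicate 3 from -0.094 to 0.04 for *WWTR1*. Of 150 replicate 3 values, 133 kept their sign and side of the threshold, 15 lost the call and 2 turned sign. The causes were not tested. The lowest read numbers of the 10 genes were 683 for *TEAD2* and 685 for *TEAD3*, and 3 libraries per group limit the MDM4 comparison.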
